A study of Glycine max with 16 samples.

Results

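The genes described here are the 45 soybean genes whose transcripts peaked in the early afternoon, at 14:00. They were chosen from 36059 genes that had at least 8 counts in any library, on the mean of 4 plots in CPM (read counts scaled to a common library size) after TMM scaling, which adjusts each library for its total and its composition. A member had at least 10 CPM at 14:00, at least 2 times its level at 8:00, and at least 1.5 times its level at both 11:00 and 17:00. The shape was uncommon. Of 6622 genes whose highest mean fell at 14:00, 2692 reached 10 CPM at that hour, and 640 of these also met the limit against 8:00, 395 the limit against 11:00 and 295 the limit against 17:00. With 1.5 times every other hour as the only limit beside 10 CPM, 55 genes were highest at 14:00, 1708 at 8:00, 132 at 11:00 and 822 at 17:00. The first and last hours sampled were 8:00 and 17:00, so genes highest there may have peaked outside the sampled hours. Their counts are thus not like those at 11:00 and 14:00.

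The samples were leaflets of the uppermost fully expanded leaf of soybean (Glycine max) cultivar 93B15, grown untreated in the field and harvested during reproductive development. Each of 4 plots was harvested at 8:00, 11:00, 14:00 and 17:00 on a single day, which gave 16 libraries of 4 plots at each of 4 times. Because each plot had its own day, plot and day cannot be told apart. Each library came from 1 leaf of a plot, so differences between plots include differences between single leaves and between days. There was no night sample, so a rise or fall outside the hours from 8:00 to 17:00 was not observed.

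Leaves carry out photosynthesis, load sucrose for export and build up starch through the light period, and many leaf transcripts follow the time of day. The circadian clock sets part of this timing. In Arabidopsis the clock includes pseudo-response regulators (PRRs), repressor proteins whose genes are expressed one after another through the day. Transcripts can also track light, temperature and water status, which change together across a field day and were not separated here.

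Counts assigned to genes ranged from 14968570 to 25691784 per library, with TMM factors from 0.803 to 1.17. The leaf label was checked against a Rubisco small subunit gene, Glyma.13G046200, which was among the 10 most abundant genes in every library at 4105 to 14491 CPM. A chlorophyll a/b-binding protein gene, Glyma.08G082900, had 1383 to 11148 CPM, whereas another locus with that name, Glyma.02G080800, did not exceed 5.66 CPM.

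Names were at hand for 5 of the 45 members, so most are given by locus and their function is not stated. Glyma.U034500 is the clock gene PRR3, and Glyma.20G218100 encodes a starch synthase. The best matches of a further 3 members were asparagine synthetase for Glyma.14G195000, an endonuclease for Glyma.07G050300 and a fragment of PsbA for Glyma.11G162200. CPM is not corrected for transcript length, so the order of members by CPM is not an order of transcript number.

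The typical member was low in the morning, about midway up at 11:00, highest at 14:00 and back near its 11:00 level by 17:00. The median of the members' mean levels was 10.2 CPM at 8:00, 18.6 at 11:00, 31.6 at 14:00 and 16.2 at 17:00. The mean at 14:00 ran from 10.1 to 284 CPM, with 9 members at 100 CPM or more and 12 under 20 CPM. Summed over members, the means came to 686 CPM at 8:00, 1455 at 11:00, 2690 at 14:00 and 1459 at 17:00. The ratio of 14:00 to 8:00 ranged from 2.06 to 14.6 (median 3.67), that to 11:00 from 1.505 to 2.59 (median 1.79), and that to 17:00 from 1.51 to 7.14 (median 1.77). These ratios chose the members and are given as a description, with no test. The hour next below the peak was 11:00 in 22 members and 17:00 in 23, and in 0 members was it 8:00. Of the members, 3 stood at 2 times or more their next highest hour. The limits set a floor under these ratios and capped 8:00 the most tightly, so nothing is read from the order of the hours.

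**Figure D1:**
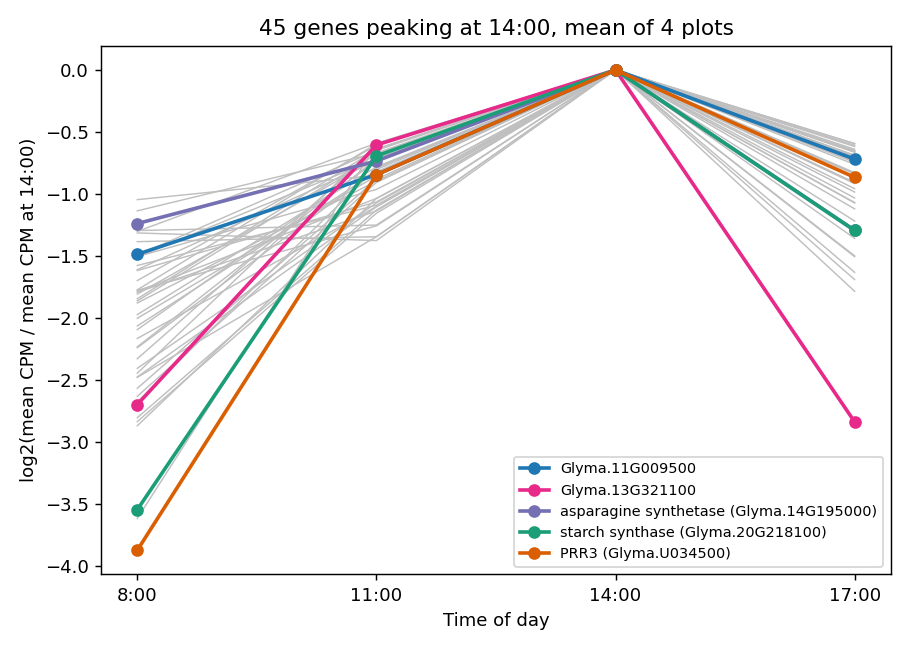
Mean TMM CPM of 4 plots at each time of day, relative to 14:00 on a log2 scale, for all 45 members (grey lines, with 5 coloured and named). PRR3 and starch synthase had the steepest rise from 8:00 among the coloured genes, and Glyma.13G321100 fell furthest by 17:00.

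The limits cut through a continuous range. Just inside the abundance limit was Glyma.12G099700 at 10.1 CPM, and just outside was Glyma.01G231400 at 9.96 CPM. The 14:00 to 8:00 ratio was 2.06 for Glyma.06G110500 inside, and 1.997 for Glyma.20G173200 outside. Against 11:00 the nearest ratios were 1.505 for Glyma.12G233600 inside and 1.489 for Glyma.17G062900 outside. Against 17:00 they were 1.508 for Glyma.20G066800 inside and 1.497 for Glyma.11G241500 outside. The 17:00 limit removed the most genes by itself, since 824 genes met every limit but that one, compared with 306 for abundance, 107 for 11:00 and 15 for 8:00.

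PRR3 had the largest rise from 8:00 to 14:00 of all members. In Arabidopsis, PRR3 binds the clock protein TOC1 and slows its breakdown. In plots 1 to 4, the soybean PRR3 locus Glyma.U034500 had 3.25, 2.86, 9.39 and 5.65 CPM at 8:00, 36.3, 27.3, 44.0 and 64.7 at 11:00, 63.0, 93.1, 67.0 and 86.3 at 14:00, and 50.9, 63.7, 33.8 and 21.5 at 17:00. Every plot was lowest at 8:00 and highest at 14:00, while the fall by 17:00 was small in plot 1 and large in plot 4. The mean at 14:00 was 77.3 ± 14.6 CPM (SD, n = 4), which was 14.6 times the mean of 5.29 ± 3.00 at 8:00. When plot 2 was left out the locus did not meet the limits. It has not been placed on a chromosome.

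Starch synthase followed a similar course at a much lower count. Starch synthases lengthen the glucan chains of starch from ADP-glucose. Glyma.20G218100 had 0.361, 0.208, 1.83 and 1.39 CPM at 8:00 in plots 1 to 4, 8.45, 7.34, 5.89 and 5.63 at 11:00, 8.21, 14.2, 7.03 and 14.7 at 14:00, and 2.36, 1.88, 5.83 and 7.94 at 17:00. All plots were lowest at 8:00, where the lowest library held 4 counts, and all were several times higher by 11:00. Plots 2 and 4 then rose on to 14:00, whereas plot 1 was slightly higher at 11:00 than at 14:00. The 14:00 mean of 11.0 ± 3.98 CPM (SD, n = 4) was 11.7 times the 8:00 mean, and the member lay close to the 10 CPM limit. It did not meet the limits when plot 2 or plot 4 was left out.

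Asparagine synthetase owed most of its mean to a single plot. The enzyme moves amide nitrogen from glutamine to aspartate, and asparagine carries nitrogen between organs in legumes. Glyma.14G195000 had 6.04, 3.70, 5.74 and 37.0 CPM at 8:00 in plots 1 to 4, 4.70, 11.7, 7.09 and 50.9 at 11:00, 13.6, 6.33, 14.9 and 88.8 at 14:00, and 4.72, 0.917, 4.34 and 40.5 at 17:00. Plot 4 was far above the others at every hour, and plots 1, 3 and 4 peaked at 14:00 whereas plot 2 peaked at 11:00. The difference between plots passed the test in edgeR (adjusted p = 0.000333, fitted range of 3.39 on the log2 scale between plots). Without plot 4 the locus did not meet the limits, so its choice and this test rest on the same high plot.

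In the locus matched to PsbA, the 14:00 mean rested on a single library. PsbA is the D1 protein at the reaction centre of photosystem II, and in plants its gene lies in the chloroplast genome, whereas Glyma.11G162200 is listed on chromosome 11. It had 56.8, 53.5, 39.0 and 22.9 CPM at 8:00 in plots 1 to 4, 34.6, 67.0, 53.0 and 22.4 at 11:00, 51.2, 317, 35.2 and 46.3 at 14:00, and 32.1, 74.8, 66.6 and 104 at 17:00. Outside plot 2 the 14:00 libraries lay within the range of the other hours, and 14:00 was the highest hour in plot 2 alone.

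Glyma.13G028200, a member without a name, moved with this locus in all libraries. It had 40.1, 37.3, 31.5 and 18.6 CPM at 8:00 in plots 1 to 4, 23.9, 48.1, 39.7 and 19.7 at 11:00, 41.1, 209, 28.6 and 34.4 at 14:00, and 23.8, 50.4, 48.0 and 67.2 at 17:00. The same library, plot 2 at 14:00, was again far above the rest. The ratio of Glyma.11G162200 to Glyma.13G028200 stayed between 1.13 and 1.55 in all 16 libraries, with a correlation of their log2 levels of 0.995. Whether the loci share reads through similar sequence was not tested.

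**Figure D2:**
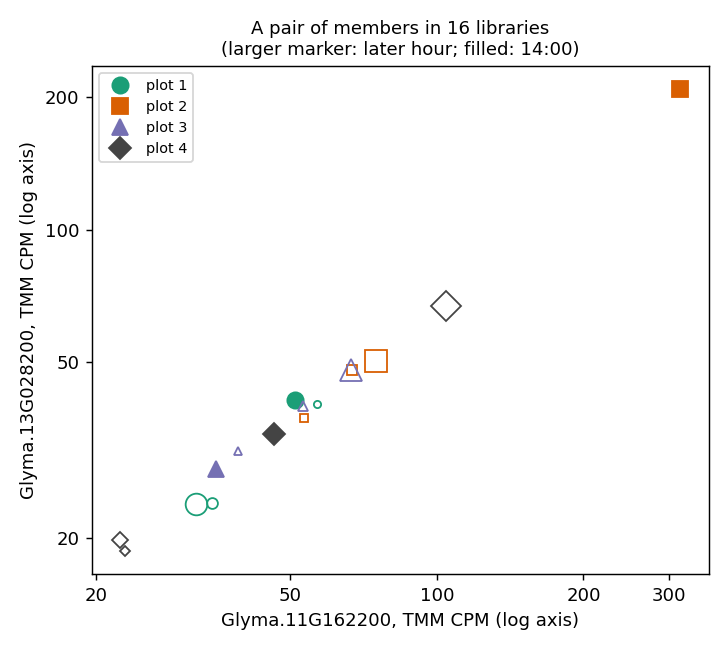
TMM CPM of Glyma.13G028200 against Glyma.11G162200 in 16 libraries, both on log axes, with a marker shape for each plot and a larger marker for a later hour. The points lie close to 1 line, and the 14:00 library of plot 2, at 317 and 209 CPM, stands apart from the other 15.

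The locus matched to an endonuclease, an enzyme class that cuts nucleic acid chains internally, was the most variable of the abundant members beside that pair. Glyma.07G050300 had 22.6, 7.70, 9.86 and 52.7 CPM at 8:00 in plots 1 to 4, 86.4, 53.8, 40.7 and 22.8 at 11:00, 93.9, 313, 44.3 and 65.6 at 14:00, and 112, 108, 63.9 and 26.4 at 17:00. Plot 2 again gave the high 14:00 value, plots 1 and 3 were highest at 17:00, and plot 4 started the day high. Its 14:00 mean of 129 had an SD of 124 CPM (n = 4), and the locus did not meet the limits when plot 2 was left out.

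**Figure D3:**
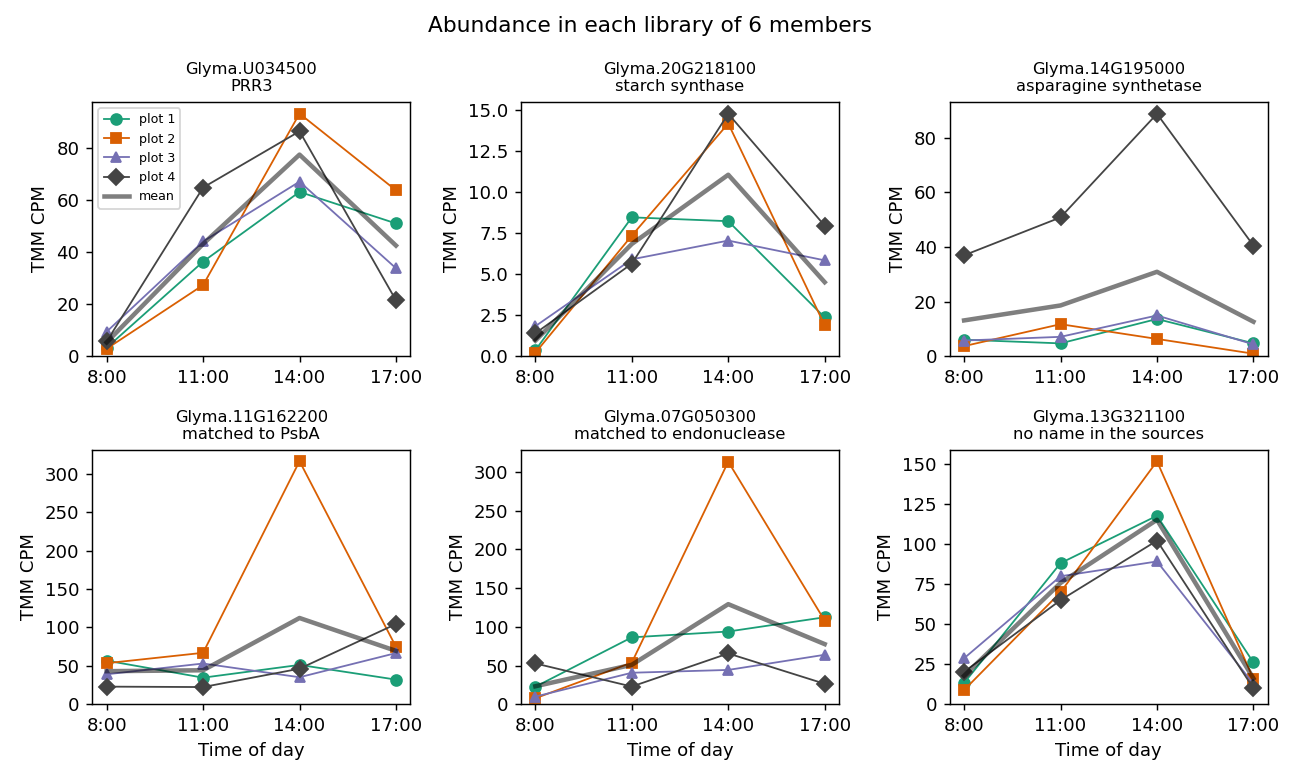
TMM CPM by time of day for 6 members, with 1 thin line for each plot and a thick line for the mean of 4 plots; each panel has its own axis from 0. PRR3 peaked at 14:00 in every plot, asparagine synthetase was high in plot 4 throughout, and the loci matched to PsbA and endonuclease were carried by plot 2 at 14:00, at 317 and 313 CPM.

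Glyma.11G009500, the highest in CPM, had 83.4, 80.4, 129 and 113 CPM at 8:00 in plots 1 to 4, 156, 159, 148 and 171 at 11:00, 261, 331, 256 and 288 at 14:00, and 169, 169, 196 and 157 at 17:00. All 4 libraries at 14:00 were above all 12 others, and the 14:00 mean was 284 ± 34.2 CPM (SD, n = 4). Glyma.01G068000 had 55.0, 30.0, 33.0 and 54.7 CPM at 8:00, 110.3, 118, 83.1 and 135 at 11:00, 194, 299, 232 and 234 at 14:00, and 136, 138, 195 and 126 at 17:00. It was highest at 14:00 in every plot, although plot 3 at 17:00 overlapped with plot 1 at 14:00. Glyma.12G130000 had 20.5, 19.5, 30.3 and 25.2 CPM at 8:00, 60.0, 56.8, 53.8 and 136 at 11:00, 103, 175, 100.83 and 186 at 14:00, and 71.2, 104, 75.1 and 97.2 at 17:00. Plots 2 and 4 were the high ones at 14:00, and plot 4 was already high at 11:00.

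Glyma.07G058200, Glyma.18G066000 and Glyma.11G175800 varied together. Glyma.07G058200 had 31.6, 7.08, 53.8 and 65.0 CPM at 8:00 in plots 1 to 4 but a narrow 143, 145, 136 and 155 at 14:00. Glyma.18G066000 had 23.4, 5.67, 36.0 and 44.98 CPM at 8:00, and 127, 94.2, 119 and 129 at 14:00. Glyma.11G175800 had 24.1, 8.12, 33.2 and 26.7 CPM at 8:00, and 78.9, 67.6, 73.8 and 78.3 at 14:00. In all 3, plot 2 was lowest at 8:00 and the plots had drawn together by 14:00. The log2 deviations of these members from the hour means correlated at 0.93 to 0.96 across the libraries, given as a description. Over all 990 pairs of members, the correlation of log2 deviations from the hour means across the 16 libraries, 4 to a plot, had a median of 0.33 (range -0.69 to 1.00) and exceeded 0.9 in 11 pairs.

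A few members had fallen back to about their 8:00 level by 17:00. Glyma.13G321100 had 13.3, 8.85, 28.7 and 20.2 CPM at 8:00 in plots 1 to 4, 88.1, 69.9, 79.9 and 65.0 at 11:00, 118, 152, 89.1 and 102 at 14:00, and 26.1, 15.9, 12.7 and 9.90 at 17:00. By 17:00 it was back among its 8:00 values, with a 14:00 to 17:00 ratio of 7.14, the highest of the members. Glyma.17G105800 had 42.1, 11.2, 48.8 and 59.8 CPM at 8:00, 74.8, 62.5, 81.8 and 60.5 at 11:00, 111, 128, 95.5 and 125 at 14:00, and 55.9, 56.2, 41.6 and 25.8 at 17:00. Its 8:00 and 17:00 libraries overlapped. Glyma.11G014700 kept a late shoulder, with 14.1, 3.33, 18.4 and 15.5 CPM at 8:00, 45.5, 31.3, 48.4 and 38.7 at 11:00, 70.6, 101.1, 99.5 and 87.3 at 14:00, and 39.1, 74.1, 53.4 and 59.8 at 17:00.

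The sharpest peaks, by the ratio of 14:00 to the next highest hour, were those of Glyma.09G013800 (2.39), Glyma.13G224300 (2.13), Glyma.12G233900 (2.101) and Glyma.02G069400 (1.95). Glyma.09G013800 had 1.55, 2.08, 5.90 and 3.92 CPM at 8:00 in plots 1 to 4, 3.67, 2.28, 4.02 and 9.31 at 11:00, 7.02, 13.03, 8.24 and 17.8 at 14:00, and 2.87, 4.63, 4.68 and 2.0996 at 17:00. Glyma.13G224300 had 7.33, 8.17, 14.1 and 12.8 CPM at 8:00, 9.55, 11.504, 14.7 and 23.6 at 11:00, 17.0, 41.8, 21.3 and 46.3 at 14:00, and 8.65, 15.9, 12.6 and 7.35 at 17:00. In both, plots 2 and 4 made most of the peak, and plot 4 at 11:00 overlapped with the lower 14:00 libraries. Glyma.12G233900 had 8.05, 2.81, 19.2 and 12.01 CPM at 8:00, 27.5, 22.1, 26.3 and 30.1 at 11:00, 45.3, 75.1, 53.5 and 48.8 at 14:00, and 13.6, 25.8, 17.2 and 8.12 at 17:00. Its 14:00 libraries were all above the other 12. Glyma.02G069400 rose to 10.8, 28.6, 16.0 and 35.6 CPM at 14:00, with plots 2 and 4 again high. The next in order were Glyma.19G015300 (1.87), Glyma.14G084800 (1.81), PRR3 (1.796), Glyma.04G236600 (1.79), Glyma.18G182500 (1.78) and Glyma.09G230500 (1.77).

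Another 18 members, with 14:00 means from 10.1 to 73.4 CPM, were not singled out by abundance, sharpness or plot. In order of their 14:00 mean these were Glyma.17G202700, Glyma.15G240600, Glyma.17G028200, Glyma.20G066800, Glyma.02G150200, Glyma.05G063100, Glyma.09G184700, Glyma.19G161600, Glyma.16G004800, Glyma.04G050500, Glyma.06G110500, Glyma.04G090800, Glyma.09G263500, Glyma.18G290200, Glyma.08G299600, Glyma.04G225100, Glyma.03G169500 and Glyma.12G099700. Glyma.17G202700 came next after PRR3 in its rise from 8:00 to 14:00, from 5.995 ± 3.77 to 73.4 ± 36.2 CPM (SD, n = 4), a ratio of 12.2. Glyma.16G004800 had the highest 14:00 to 11:00 ratio, 2.59, at 10.8 ± 4.14 CPM at 8:00 and 10.3 ± 0.794 at 11:00 before 26.7 ± 2.69 at 14:00 (SD, n = 4).

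The hours on either side of the peak were set against 8:00 to describe the shoulders. A gene was called at an adjusted p under 0.05 (edgeR quasi-likelihood test with plot in the model, Benjamini-Hochberg over all genes kept) where the log2 fold change also reached 1 or more. At 11:00, 26 of the 45 members were called higher than at 8:00, where 5.46% of all genes kept were, and 0 were called lower, where 3.87% were. At 17:00, 22 were called higher, where 15.6% of all genes kept were, and 0 lower, where 13.1% were. The rule used the means of all these hours and capped 8:00 more tightly than 11:00 or 17:00, so nothing is read from these shares. With DESeq2 or limma-voom 0 members were called lower at either hour, and at an unadjusted p under 0.05 in edgeR 0 were lower. Both hours were called in 20 members, 11:00 alone in 6, 17:00 alone in 2 and neither in 17. These joint counts, and the counts of 0 under other settings, are given for members only, and nothing is read from them.

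The median log2 fold change of the members was 1.17 at 11:00 and 1.03 at 17:00, beside -0.01 and 0.06 over all genes kept. PRR3 was highest on both scales, at 3.04 ± 0.42 for 11:00 and 3.07 ± 0.43 for 17:00 (log2 fold change ± SE). Starch synthase stood at 2.99 ± 0.53 and 2.21 ± 0.52. Glyma.13G321100 was the most lopsided, at 2.08 ± 0.34 for 11:00 and -0.18 ± 0.33 for 17:00. Asparagine synthetase had the lowest 17:00 value, -0.41 ± 0.39, and was not called.

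**Figure D4:**
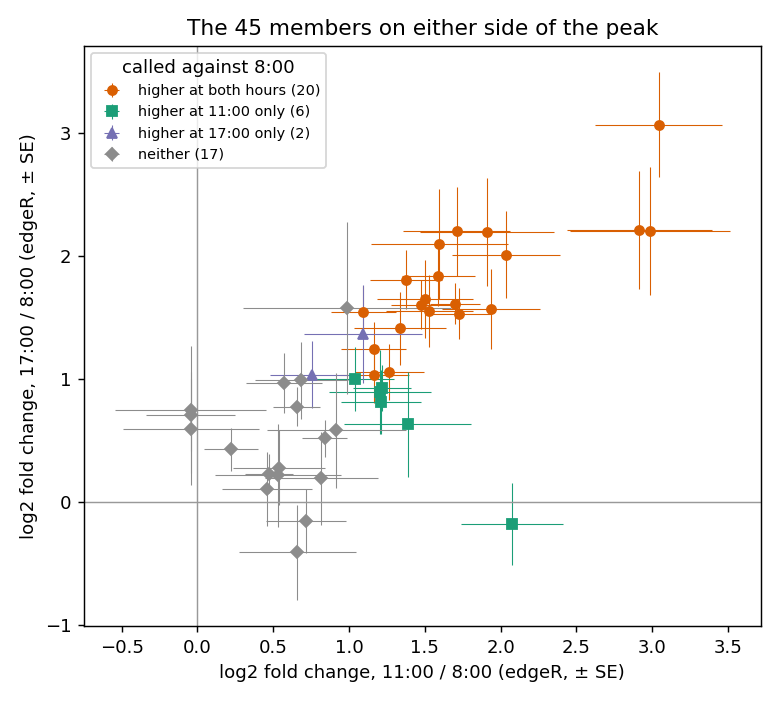
Log2 fold change of each of the 45 members at 17:00 against that at 11:00, both relative to 8:00, with edgeR standard errors as bars and colour for the call. Most members lie above 0 on both axes, 20 are called at both hours, and Glyma.13G321100 lies apart at 2.08 for 11:00 and -0.18 for 17:00. The rule capped 8:00 more tightly than 11:00 or 17:00, so the positions are a description.

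The peak was also read within each plot, in the same libraries whose means chose the members, so the counts are a description. The 14:00 library was the highest of its plot's 4 in all 4 plots in 36 members, in 3 plots in 5, in 2 plots in 3 and in 1 plot in 1, the locus matched to PsbA. Among all genes kept, 933 (2.59%) were highest at 14:00 in all 4 plots. In 15 members every 14:00 library was above every other library. This was not counted over all genes kept, so nothing is read from it. The full limits were harder to meet within a plot. They were met by 15 members in plot 1, 38 in plot 2, 11 in plot 3 and 22 in plot 4, and by 1 member in all 4 plots. How many of all genes kept met them within a plot was not counted, so these numbers only describe the members.

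The height of the peak differed between plots. The median 14:00 to 8:00 ratio within a plot was 3.83 in plot 1, 6.97 in plot 2, 2.59 in plot 3 and 4.05 in plot 4. Plot 2 was the lowest plot at 8:00 in 25 members and the highest at 14:00 in 26, and plot 3 was the highest at 8:00 in 28. Plot 4 was the highest at 11:00 in 29 members and the lowest at 17:00 in 27. In that plot the median log2 deviation of members from the hour mean was 0.28 at 11:00 and -0.29 at 17:00. For all genes with at least 10 CPM at 14:00 it was -0.03 and 0.06. Each library came from 1 leaf, so the members are not separate evidence about a plot. The rule used the means of these same libraries, and a plot low at 8:00 and high at 14:00 raises the ratios it limits. The medians and counts per plot are thus a description. Without plot 2, 24 members still met the limits, beside 44, 41 and 30 without plots 1, 3 and 4. Among genes chosen without the plot concerned, the median 14:00 to 8:00 ratio was highest in plot 2 (5.56) and lowest in plot 3 (2.44). These medians came from different sets, 31 genes for plot 2 and 85 for plot 3. The plot left out also changes which genes are chosen, so nothing is read from their order. The median SD of log2 CPM between plots was 0.61 for members at 8:00, 0.35 at 11:00, 0.33 at 14:00 and 0.41 at 17:00, compared with 0.27, 0.22, 0.19 and 0.22 for all genes with at least 10 CPM at 14:00. Members had lower levels at 8:00, and its part in the larger spread was not tested.

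**Figure D5:**
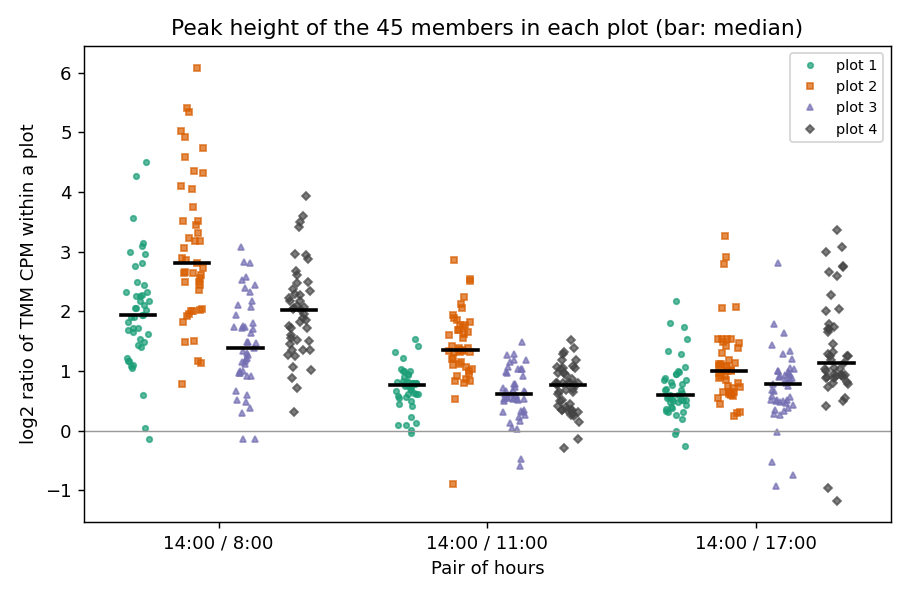
Log2 ratio of TMM CPM at 14:00 to each other hour, within each plot, with a point for each of the 45 members and a bar at the median. The median 14:00 to 8:00 ratio, unlogged, was highest in plot 2 (6.97) and lowest in plot 3 (2.59). The members were chosen on the means of these same libraries, so the ratios are a description.

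Choosing genes by the same rule on 3 plots and reading them in the fourth gave values that the choice had not used. Without plot 1, 68 genes were chosen, and 52 of them (76.5%) were highest at 14:00 in plot 1, beside 21.4% of the genes with at least 10 CPM at 14:00. Without plot 2, 27 of 31 (87.1%) were highest at 14:00 in that plot, beside 21.3%. Without plot 3, 64 of 85 (75.3%) were, beside 15.4%, and without plot 4, 32 of 43 (74.4%) were, beside 14.99%. In each plot left out, most of the chosen genes thus peaked at the same hour. The sets overlapped, and each plot was read from 1 leaf at each hour, so they are not separate tests. The median 14:00 to 8:00 ratio in the plot left out was 3.76, 5.56, 2.44 and 3.50 for plots 1 to 4. The corresponding medians against 11:00 were 1.62, 2.58, 1.45 and 1.41, and against 17:00 they were 1.42, 1.56, 1.42 and 1.93. The limits themselves were met in the plot left out by 14 of 68, 18 of 31, 10 of 85 and 11 of 43 genes.

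Members were also compared between plots across all hours together. By the same thresholds, with the range taken between any 2 plots, 2 of the 45 members were called, where 6.31% of all genes kept were, a share near the background. At an unadjusted p under 0.05 in edgeR, with no limit on the range, 15 members differed between plots, where 27.9% of all genes kept did. The members called were asparagine synthetase and Glyma.06G132600. The latter had 11.1, 10.7, 25.3 and 9.06 CPM at 8:00 in plots 1 to 4, 26.003, 37.3, 41.0 and 22.6 at 11:00, 36.8, 66.7, 58.5 and 29.8 at 14:00, and 24.6, 31.4, 28.3 and 17.9 at 17:00. Plots 2 and 3 were above plots 1 and 4 from 11:00 on (edgeR adjusted p = 0.012, fitted log2 range 1.02). Glyma.14G084800 had an adjusted p of 0.0453 in edgeR but a log2 range of 0.89, and was not called.

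The members were spread over the genome. They lay on 19 of the 20 chromosomes, with 4 each on chromosomes 4, 9, 11 and 12, none on chromosome 10, and PRR3 unplaced. The nearest neighbours were Glyma.12G233600 and Glyma.12G233900, which are 3 loci apart in the table. Glyma.12G233600 had means of 11.4, 18.6, 28.0 and 9.92 CPM at the 4 hours. The loci between them had other profiles, Glyma.12G233700 with means of 532, 570.4, 489.7 and 148 CPM and Glyma.12G233800 with 34.9, 33.0, 35.4 and 24.5 CPM. The next nearest members were 49 loci apart.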

How the data were processed

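Leaflet RNA from 16 libraries was sequenced after poly-A selection and TruSeq library preparation. The submitters' processing notes name CASAVA 1.8.2, Trimmomatic, TopHat2 and HTSeq, and the authors deposited whole-number counts for each gene, not normalized. How reads were assigned by strand and at overlaps is not stated in the sources used, so overlapping or near-identical genes could share reads. All columns were matched to samples by name.

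Genes with at least 8 counts in any library were kept (36059 of 56044). Counts were fitted in R 4.3.3 with edgeR 4.0.16 (TMM, quasi-likelihood test, time point and plot in the model, tested on simulated data), with Benjamini-Hochberg adjustment over all genes kept. Standard errors were back-calculated from the F statistic and are approximate. DESeq2 1.42.0 and limma 3.58.1 served as alternatives, beside other scalings, filters and averages and each plot left out.

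Replicate numbers pair the samples, since each stands for 1 plot harvested on 1 day. After the hour means were taken out, libraries correlated with a median r of 0.242 within plots (24 pairs) and -0.0703 between plots (72 pairs). No library was a copy of another. At this depth, members under a few CPM rest on few counts.

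The members and lists were chosen with earlier results of these data known. Genes named with values were the 10 highest at 14:00, the 10 sharpest, the 5 with the smallest adjusted p between plots, those named in the sources and the nearest to each limit. Glyma.13G028200, Glyma.11G175800, Glyma.17G202700, Glyma.16G004800 and the loci beside Glyma.12G233600 were added after their values were seen. Lists of genes by function were not used, because the annotation at hand (assembly Glycine_max_v4.0) matched none of the locus names, and no sequence was used here.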

Additional observations from a re-analysis of the deposited data

Results flagged for a closer look

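Among 27 members, 108 groups of 4 libraries were checked for a library far from the other 3 by Dixon's test, which flags about 1 group in 20 by chance, and 12 stood out. The 5 members named for the smallest p between plots gave 8 of the 12, and the other 22 members gave 4 in 88 groups. The chance rate holds for groups not chosen by their values, whereas the members were chosen on these means. Glyma.11G162200 and Glyma.13G028200, both flagged in plot 2 at 14:00, did not meet the limits without plot 2. Nothing is therefore read from the number of flags. Glyma.13G028200 was among those 22 and was added after its plot 2 value was seen. Asparagine synthetase, Glyma.14G195000, was high in plot 4 at all hours, at 37.0 CPM at 8:00 (next 6.04), 50.9 at 11:00 (next 11.7), 88.8 at 14:00 (next 14.9) and 40.5 at 17:00 (next 4.72). Plot 4 was also high for Glyma.06G127700, at 56.1 CPM at 11:00 (next 27.3) and 42.7 at 17:00 (next 31.5), and for Glyma.12G130000, at 136 CPM at 11:00 (next 60.0). Plot 4 was low for Glyma.18G182500 at 17:00, at 10.3 CPM (next 16.3). Plot 2 at 14:00 was high for Glyma.11G162200, at 317 CPM (next 51.2), and for Glyma.13G028200, at 209 CPM (next 41.1). Glyma.19G015300 had 3.33 CPM in plot 2 at 8:00 (next 2.36). Glyma.06G132600 had 25.3 CPM in plot 3 at 8:00 (next 11.1).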

How the results depend on the processing

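Which genes met the limits depended on the plots. Without 1 plot the number of members ran from 31 to 85, with 44 of the 45 members kept without plot 1, 24 without plot 2, 41 without plot 3 and 30 without plot 4. Without the 14:00 library of plot 2 alone, an alternative chosen after seeing the data, 31 genes qualified, 23 of them among the 45. Other scalings, filters and averages gave 42 to 60 genes, the most with library totals alone (32 shared), which moved the median of all genes at 14:00 relative to 8:00 from 0.01 to 0.19 on the log2 scale. Across the 10 settings other than the single library left out, 12 members were kept. No member with a name was among them. PRR3 was lost without plot 2, and starch synthase without plot 2 and without plot 4. Members called higher ran from 19 to 31 at 17:00 and from 22 to 27 at 11:00, and without the plot (replicate) block they were again 22 and 26. All 26 were shared at 11:00, and 20 at 17:00, where Glyma.11G175800 and Glyma.18G182500 were lost and Glyma.07G050300 and Glyma.09G263500 gained. Members called between plots were 1 with limma-voom or library totals, and 0 to 2 with 1 plot left out, being 1 without plot 3 and 0 without plot 4. The log2 fold change at 17:00 against 8:00 turned sign in 7 of the 45 members, and 0 of these were called. With library totals it was 0.12 for Glyma.13G321100 and 0.13 for Glyma.12G233600. With 1 plot left out it ran from -0.58 to 0.17 for Glyma.13G321100 (0.11 without plot 4) and from -0.27 to 0.023 for Glyma.12G233600, both positive without plot 3. The lowest value came without plot 2 in the other 5, with ranges of -0.35 to 0.67 for Glyma.17G105800, -0.14 to 0.44 for Glyma.09G013800, -0.21 to 0.31 for Glyma.13G224300, -0.027 to 0.99 for Glyma.12G233900 and -0.053 to 0.58 for Glyma.02G069400. The causes were not tested.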
